A study of Homo sapiens with 2 samples.

Results

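The enzymes described here dispose of superoxide and peroxides: the superoxide dismutases SOD1 and SOD2, catalase (CAT), the glutathione peroxidases GPX1, GPX2 and GPX4, and the peroxiredoxins PRDX1, PRDX2, PRDX3 and PRDX6. The 10 genes are a chosen list, and their probes were taken as all non-control probes whose RefSeq transcript belongs to one of them. In all, 12 of 50599 probes matched, for 9 of the 10 genes. No probe matched PRDX2 through the gene table used here, and PRDX2 was therefore not analysed. The samples were HepG2 cells, an established human hepatocellular carcinoma line that keeps many hepatocyte functions, treated for 24 h with the solvent dimethyl sulfoxide (DMSO) or with hawk tea extract (HTE), an extract of the plant Litsea coreana. Both groups were grown in the same high-glucose medium with serum, and the groups carry no genetic change relative to each other. The sample labels give an HTE dose of 200 µg/mL, whereas the study's text describes a higher dose for the arrays, so the dose is not settled. Each group is 1 Agilent 1-colour array, so no test between the groups was possible and the variation from culture to culture was not measured.

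Superoxide is formed mainly by the respiratory chain and by oxidases. A dismutase turns it into hydrogen peroxide, which catalase splits in the peroxisome and which glutathione peroxidases and peroxiredoxins reduce in the other compartments. Glutathione peroxidases draw electrons from glutathione, and most peroxiredoxins from thioredoxin, and both systems are recharged by NADPH. Hepatocytes are rich in peroxisomes and are known for high catalase activity.

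All 12 probes were well above background on both arrays, and none of their spots was saturated. The raw signal of the spots was between 485 and 3880 times the local background. Each value below is the log2 of the processed signal, the background-subtracted intensity of a spot, minus the 75th percentile of the array. That percentile lay at a signal of 4020 on the DMSO array and 3570 on the HTE array. The HepG2 label was checked against 12 hepatocyte markers, all of which, among them ALB, APOA1 and AFP, were well above background on both arrays. Their log2 ratios of HTE over DMSO lay between -0.36 and 0.21. Of 11 markers of leukocytes, endothelial cells and fibroblasts, CD3E, CDH5 and DCN were not well above background on either array. Among the others, CD14 had a log2 ratio of -1.77 and PECAM1 of -1.82, and their part in the results was not tested.

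The signals of the scavenging enzymes were nearly the same on both arrays. Of the 9 genes measured, each represented by its brightest probe, 7 were higher after HTE and 2 were lower, with a median log2 ratio of 0.060. No gene of the 9 reached the 2-fold change that the study's methods use as a cutoff, in either direction. Among all 23752 genes and unnamed transcripts measured, 45.7% were higher to any extent and 49% were lower, while 5.25% were at least 2-fold higher and 3.03% at least 2-fold lower. Bright genes varied less than dim ones, so the same shares were also taken over the 4126 genes at least as bright as the dimmest scavenging enzyme, a limit set after the values had been seen. Of those, 50.6% were higher and 49.4% lower, and 0.776% and 0.557% were at least 2-fold higher and lower. With shares this low among genes of like brightness, nothing particular to the 9 enzymes is read from the absence of a 2-fold change.

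**Figure D1:**
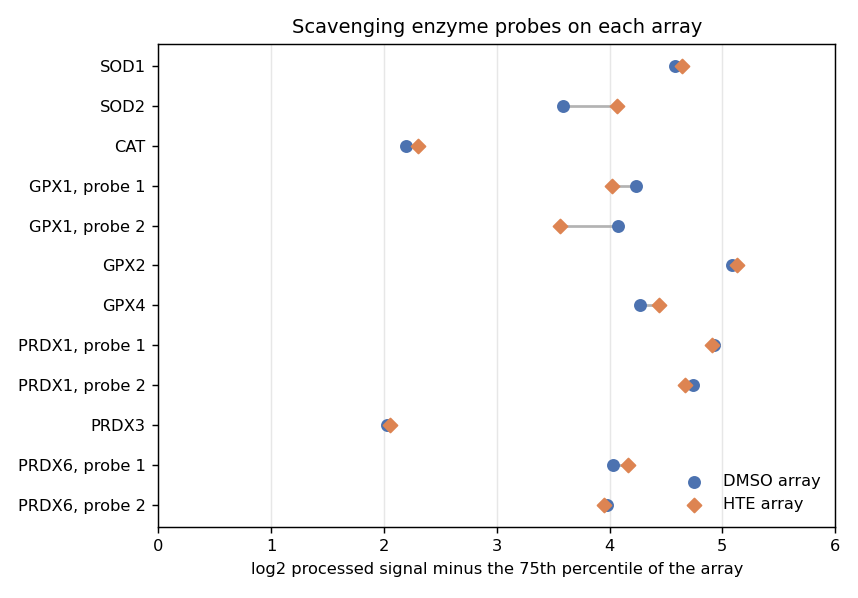
The x axis is the log2 processed signal minus the 75th percentile of the array, and each row is a probe, with the DMSO array as a circle and the HTE array as a diamond. The points of most probes nearly coincide, while SOD2 moved from 3.59 to 4.07 and the second GPX1 probe from 4.08 to 3.56.

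SOD2 encodes the manganese superoxide dismutase of the mitochondrial matrix. Its scaled signal was 3.59 on the DMSO array and 4.07 on the HTE array. The log2 ratio of 0.48, or 1.39-fold, was the largest of the 9 genes. It exceeded the ratio of 84.6% of the 21000 genes that both arrays measured, of which the quartiles were -0.29 and 0.29. Among the 4126 genes at least as bright as the dimmest scavenging enzyme the quartiles were narrower, at -0.16 and 0.17. The 5th and 95th percentiles of those genes were -0.47 and 0.49, and the SOD2 ratio lay between them. The SOD2 value rests on 1 probe printed in 1 spot. SOD1, the copper and zinc enzyme of the cytosol, had a scaled signal of 4.58 with DMSO and of 4.64 with HTE. Its log2 ratio was 0.060, a scaled signal 4.27% higher. The difference between the SOD2 and SOD1 ratios was 0.42 on the log2 scale. It lay between 0.40 and 0.57 under every processing alternative tried.

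CAT, the catalase of the peroxisome, was measured by 1 probe printed in 10 spots. The spots ranged from 2.17 to 2.22 on the DMSO array, with a median of 2.20. On the HTE array they ranged from 2.25 to 2.34, with a median of 2.31. With the scaling used here the 2 sets of spots did not overlap. How many other probes behave so was not counted, so nothing particular to CAT is read from it. The log2 ratio of CAT was 0.025 when scaled to the median and -0.066 without scaling. With the scaling used here its mean was 0.11 ± 0.024 (SD, n = 10 spots), and all 10 spots were higher on the HTE array. These spots share the RNA of 1 culture per group, so this SD measures the array and not the biology.

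GPX1, the main cytosolic glutathione peroxidase, was the lowest of the 9 genes. Its brighter probe had a scaled signal of 4.23 with DMSO and 4.02 with HTE. The dimmer probe had 4.08 with DMSO and 3.56 with HTE. Both probes carry the same transcript accession and both were lower after HTE, with log2 ratios of -0.21 and -0.52. They differ in size, since the scaled signal changed by -13.8% at the first and by -30.1% at the second. GPX2, the glutathione peroxidase best known from the gut epithelium, had a scaled signal of 5.08 with DMSO and of 5.13 with HTE. Its log2 ratio was 0.047. GPX4, which reduces lipid hydroperoxides in membranes and guards against ferroptosis, had a scaled signal of 4.27 with DMSO and 4.43 with HTE, a log2 ratio of 0.16. All 3 are selenoproteins. The GPX4 ratio exceeded that of GPX1 by 0.38 on the log2 scale at the brightest probes, and by 0.29 to 0.68 over the alternatives.

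PRDX1, a cytosolic peroxiredoxin that thioredoxin recharges, had 2 probes. The brighter one was printed in 10 spots, which ranged from 4.77 to 5.06 with DMSO, with a median of 4.95, and from 4.82 to 5.02 with HTE, with a median of 4.90. The spots of the 2 arrays overlapped. The mean log2 ratio was -0.019 ± 0.12 (SD, n = 10 spots), with 5 spots higher and 5 lower. The other probe had a scaled signal of 4.74 with DMSO and 4.67 with HTE, a log2 ratio of -0.070.

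PRDX3, the peroxiredoxin of the mitochondrial matrix, had a scaled signal of 2.03 with DMSO and of 2.06 with HTE. Its log2 ratio was 0.027, so the mitochondrial peroxiredoxin was level while the dismutase of the same compartment was higher. The difference between the SOD2 and PRDX3 ratios was 0.45. PRDX6, which is recharged through glutathione rather than thioredoxin and also acts as a phospholipase, had 2 probes. The brighter one had a scaled signal of 4.03 with DMSO and 4.17 with HTE, a log2 ratio of 0.14. The other had 3.98 and 3.95, a log2 ratio of -0.029, so the direction for PRDX6 depended on the probe.

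**Figure D2:**
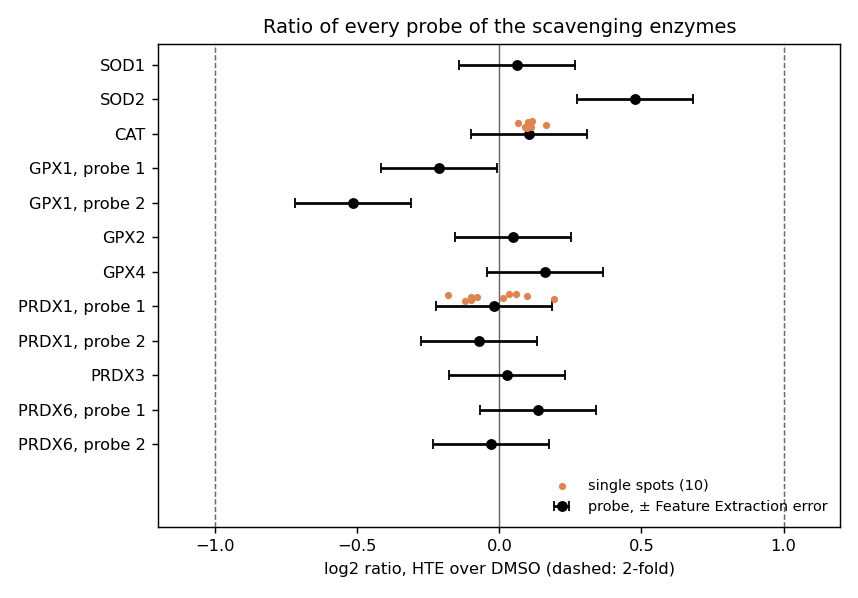
The x axis is the log2 ratio of HTE over DMSO, each row is a probe, and the bar is the error that the scanner software assigns to the ratio (0.20 for every probe). Small points are the 10 spots of the CAT and PRDX1 probes. The bars of SOD2 and of both GPX1 probes do not reach 0, that of the brighter GPX1 probe only just, and those of the other 9 probes cross it.

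Several measures of array error bear on these ratios, and none includes the variation between cultures. The scanner software gives an error for each processed signal, which comes to 0.20 on the log2 ratio for each of the 12 probes. By this measure 3 of the 12 probes, that of SOD2 and both of GPX1, had a ratio larger than its error, and 9 did not. The brighter GPX1 probe, at -0.21, only just passed it. How many of all probes do so was not counted, so nothing particular to these enzymes is read from the 3. Among the 4126 genes at least as bright as the dimmest scavenging enzyme, the quartiles of the ratio were -0.16 and 0.17. The median SD of the ratio among replicate spots of a probe was 0.051 over 688 probes. The median SD among different probes of a gene was 0.16 over 3759 genes. The ratios of GPX1 (-0.21), GPX4 (0.16) and PRDX6 (0.14) at their brightest probes are close to that last figure, and those of SOD1, CAT, GPX2, PRDX1 and PRDX3 are below it.

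**Figure D3:**
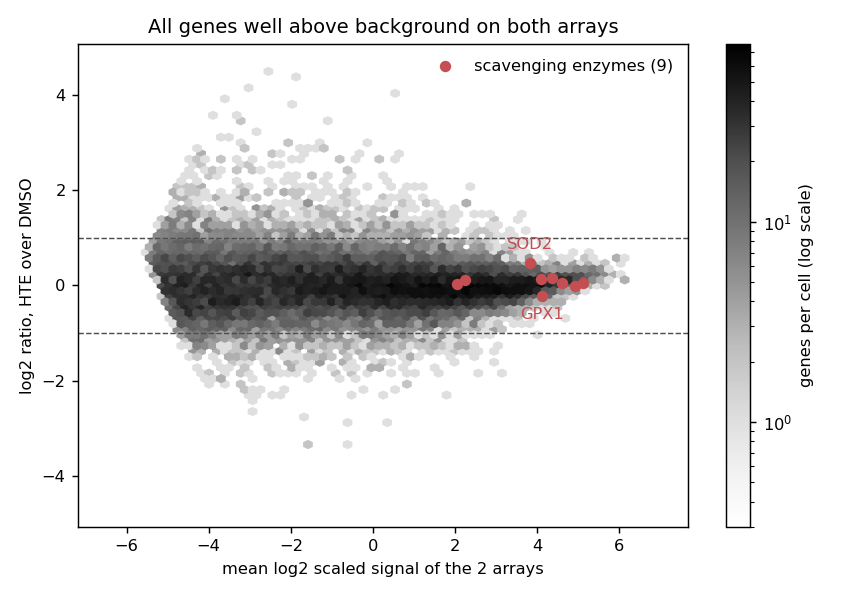
The x axis is the mean log2 scaled signal of both arrays and the y axis the log2 ratio of HTE over DMSO. Shading gives the number of genes among the 21000 measured on both arrays. The 9 scavenging enzymes (red) lie among the bright genes and between the dashed 2-fold lines, with SOD2 at 0.48 and GPX1 at -0.21.

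The promoters of the enzymes were examined in the RefSeq sequence table (GRCh38.p14), which holds windows from 250 bases before to 50 after a start site for 7 of the 10 genes, 12 windows in all, some of them overlapping. The motifs searched on both strands were the core of the antioxidant response element (ARE, TGACNNNGC), to which NRF2 binds, the CCAAT box (CCAAT), the GC box (GGGCGG) and the TATA box (TATAAA). Matches may overlap. The ARE core was found in 1 of the 12 windows, that of GPX2, against 13.3% of all 35116 promoter windows. A match is a description of the letters only. Of the related genes described below, 5 were searched too. The core occurred in both windows of TXNRD1, in the window of ME1 and in 1 of 3 windows of PEX5, and in none of SESN2, which had the highest ratio of the 5, or of SRXN1. No link between the core and a ratio is read from this, and the matches are shown so that their letters can be compared. Capitals mark 1 match per window, which reads TGACNNNGC on the printed strand for ME1, PEX5 and the first TXNRD1 start and on the opposite strand for the others. TXNRD1 appears with its 2 start sites.
GPX2 (chr14:64942843-64942883, minus strand): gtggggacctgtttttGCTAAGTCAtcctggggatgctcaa
TXNRD1 (chr12:104215664-104215704, plus strand): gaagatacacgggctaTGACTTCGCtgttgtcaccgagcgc
TXNRD1 (chr12:104286914-104286954, plus strand): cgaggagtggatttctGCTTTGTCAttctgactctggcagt
ME1 (chr6:83431164-83431204, minus strand): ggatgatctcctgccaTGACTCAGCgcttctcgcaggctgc
PEX5 (chr12:7188963-7189000, plus strand): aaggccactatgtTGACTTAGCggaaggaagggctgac

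The GC box was found in 12 of the 12 windows, against 45% of all windows, and the TATA box in 0 of the 12, against 11.5%. The promoters of SOD2 and GPX1 are shown because these genes had the highest and the lowest ratio. SOD2 has 4 windows with 12 GC box matches in all, and the window with the most held 6 before its start site, whereas GPX1 held 1. Capitals mark the GC box on either strand in the 250 bases before the start site.
SOD2 (chr6:159693242-159693491, minus strand): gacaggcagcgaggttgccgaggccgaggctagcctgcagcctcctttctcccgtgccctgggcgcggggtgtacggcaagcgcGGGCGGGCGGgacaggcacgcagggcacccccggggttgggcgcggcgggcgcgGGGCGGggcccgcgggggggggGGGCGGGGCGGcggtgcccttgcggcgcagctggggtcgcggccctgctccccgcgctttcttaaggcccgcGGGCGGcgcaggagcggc
GPX1 (chr3:49358354-49358603, minus strand): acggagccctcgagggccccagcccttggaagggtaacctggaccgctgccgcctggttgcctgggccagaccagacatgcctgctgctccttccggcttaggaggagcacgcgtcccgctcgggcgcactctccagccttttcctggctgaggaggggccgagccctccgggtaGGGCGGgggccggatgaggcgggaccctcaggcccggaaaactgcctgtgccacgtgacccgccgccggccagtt

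The CCAAT box was found in 6 of the 12 windows, against 34.6% of all windows. CAT held 5 matches, and its 250 bases are shown with the box of either strand in capitals, since CAT held the most matches of the genes with 1 window.
CAT (chr11:34438684-34438933, plus strand): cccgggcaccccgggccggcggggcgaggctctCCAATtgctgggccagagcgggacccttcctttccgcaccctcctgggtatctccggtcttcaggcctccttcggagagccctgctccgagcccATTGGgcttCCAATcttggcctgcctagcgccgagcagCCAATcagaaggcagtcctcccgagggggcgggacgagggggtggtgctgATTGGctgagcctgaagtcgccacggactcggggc

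Of 8 further genes of the same families, 6 were measured, 4 of them higher and 2 lower, with a median log2 ratio of 0.19 and none at 2-fold. Among the 6, GPX6 was well above background with DMSO only and enters as a bound, and SOD3 and GPX5 were not well above background on either array. PRDX4, the peroxiredoxin of the endoplasmic reticulum, had a log2 ratio of 0.17, and PRDX5, found in mitochondria and peroxisomes, of 0.20. GPX8, an endoplasmic reticulum enzyme without selenium, had the highest at 0.47, though its other probe gave 0.14. GPX3, the secreted plasma enzyme, had the lowest at -0.43, and its other probe gave -0.44.

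The list of the thioredoxin system, which recharges or repairs the peroxiredoxins, also holds the sestrins and was less uniform. Of its 10 genes, 9 were measured, with 6 higher, 3 lower and a median of 0.21. SESN2, a stress-inducible sestrin, rose 3.02-fold, from a scaled signal of 0.053 with DMSO to 1.65 with HTE, though its log2 ratio of 1.59 became 0.51 with spike-in scaling. TXNRD1, the cytosolic thioredoxin reductase, was 2.07-fold higher, from -1.98 to -0.92, and its log2 ratio of 1.05 fell below the 2-fold line with every other scaling and with normexp background correction, at 0.97 with the median and 0.88 without scaling. SRXN1, the sulfiredoxin that rescues over-oxidised peroxiredoxins, went from 2.57 to 3.01, a log2 ratio of 0.44. TXN, the cytosolic thioredoxin that TXNRD1 reduces, had a log2 ratio of 0.12. TXNRD2, the mitochondrial thioredoxin reductase, had one of 0.21, and its substrate TXN2, named after its value was seen, one of -0.095. SESN1 was the lowest of the list at -0.36. The TXNRD1 ratio exceeded that of PRDX1 by 1.07 on the log2 scale, between 0.98 and 1.17 over the alternatives, and the SRXN1 ratio exceeded it by 0.46, between 0.44 and 0.62. TXNRD1 and SRXN1 are also known NRF2 targets, and their values belong to that pathway as well.

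Genes that supply glutathione and NADPH numbered 13, all measured, with 8 higher, 5 lower and a median of 0.092. ME1, the cytosolic malic enzyme that yields NADPH, was 2.09-fold higher, from a dim scaled signal of -4.43 to -3.37, and its log2 ratio of 1.07 was likewise under 2-fold at 0.98 with the median, 0.89 without scaling and 0.91 with normexp. SLC7A11, the cystine carrier that feeds glutathione synthesis, went from 2.07 to 3.07, a log2 ratio of 0.99 that lies just under 2-fold. GSR, which recycles glutathione, was level at 0.040 on its brighter probe and 0.098 on the other.

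**Figure D4:**
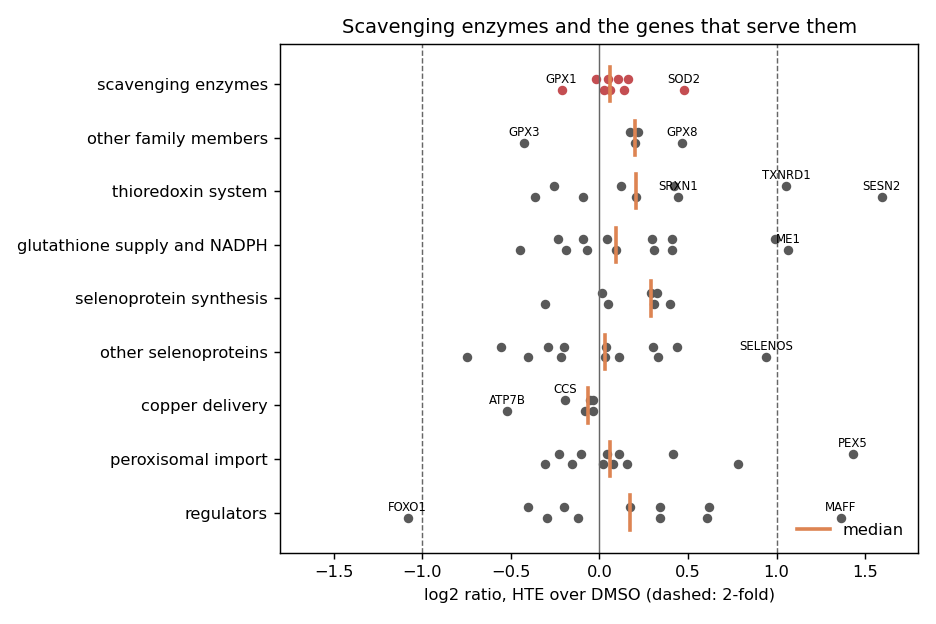
The x axis is the log2 ratio of HTE over DMSO, each point is a gene measured on both arrays, and the orange bar is the median of the points plotted, for all lists but that of superoxide and peroxide sources. The 9 scavenging enzymes (top) lie between -0.21 and 0.48, while SESN2, TXNRD1, ME1, PEX5 and MAFF lie past the upper dashed 2-fold line and FOXO1 past the lower.

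Selenium is built into GPX1, GPX2 and GPX4 by dedicated machinery. Of 7 genes of selenoprotein synthesis, 6 were higher and 1 lower, with a median log2 ratio of 0.29 and none at 2-fold, from -0.31 for SCLY, the selenocysteine lyase, to 0.40 for SEPSECS, which makes selenocysteyl-tRNA. The count was 4 higher and 3 lower when scaled to the median or not scaled, and 0 and 7 with spike-in scaling, while 45.7% of all genes were higher with the scaling used here. Of 14 other selenoproteins 13 were measured, 7 higher and 6 lower, with a median of 0.034. They ranged from -0.75 for SELENOT to 0.94 for SELENOS, both proteins of the endoplasmic reticulum. The 4 probes of SELENOT were all lower, between -0.19 and -0.75. Copper reaches SOD1 through the chaperone CCS, which had a log2 ratio of -0.19. All 6 copper delivery genes had a lower signal, while 49% of all genes were lower with the scaling used here. Their median log2 ratio was -0.066, smaller in size than the median scanner error of 0.20, and the lowest was that of the exporter ATP7B at -0.52. With normexp, with the dimmest probe of a gene or relative to neighbouring spots, 1 of the 6 was higher and 5 were lower. ATP7A, a further copper pump, was nearest to 0 at -0.034 on the brightest of its 4 probes, while the others lay between -0.043 and -0.43.

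Catalase enters peroxisomes through the receptor PEX5. Its single probe was dim and rose 2.69-fold, from a scaled signal of -4.09 with DMSO to -2.67 with HTE, whereas CAT itself differed by 0.11. With spike-in scaling the log2 ratio of PEX5 was 0.34 in place of 1.43. Of 13 genes of peroxisomal import, 8 were higher, 4 lower and 1 had no measurable change, with a median of 0.041 that turned to -0.040 when scaled to the median, and PEX5 was the only one at 2-fold. PEX3 was the lowest at -0.31, with -0.59 on its other probe. Among 20 enzymes that produce superoxide or peroxide, 14 were measured, with 10 higher, 2 lower, 2 without measurable change and a median of 0.27. Of all genes, 45.7% were higher with the scaling used here. The count was 9 higher and 3 lower without scaling, and 1 and 13 with spike-in scaling. DAO, the peroxisomal D-amino acid oxidase, was 2.18-fold lower, from -3.15 to -4.27, and with normexp its log2 ratio of -1.12 became -0.82, under 2-fold.

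Of 11 regulators, all measured, 6 were higher and 5 lower, with a median of 0.17. NFE2L2, the gene of NRF2, had a log2 ratio of -0.30, and KEAP1, which marks NRF2 for destruction, of -0.20. MAFF, a small MAF protein that pairs with NRF2, rose 2.57-fold, from -0.66 to 0.70, and its log2 ratio of 1.36 became 0.28 with spike-in scaling. FOXO1, a transcription factor of the family known to drive SOD2 and CAT, fell 2.12-fold, from -0.25 to -1.33. FOXO3 of the same family, named after its values were seen, was higher at all 3 of its probes, with log2 ratios of 0.34, 0.50 and 0.58.

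The direction of most of the 9 ratios depended on the processing. SOD2 stayed higher, between 0.31 and 0.65, and GPX1 and PRDX1 stayed lower, between -0.52 and -0.15 and between -0.19 and -0.0014, under every alternative other than scaling to the spike-in RNA. The other 6 genes changed sign under at least 1 alternative. Without scaling 1 of 9 genes, SOD2, was higher. The probes of the E1A spike-in RNA were brighter on the HTE array. Scaled to it, all 9 genes were lower, from -0.60 for SOD2 to -1.30 for GPX1, together with the median of all genes at -1.07. The study's text does not state at which step the spike-in RNA was added, and the cause of its difference between the arrays was not tested. The spike-in values are therefore not read as a measure of cell number or of RNA per cell, which cannot be told apart in such bulk samples.

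**Figure D5:**
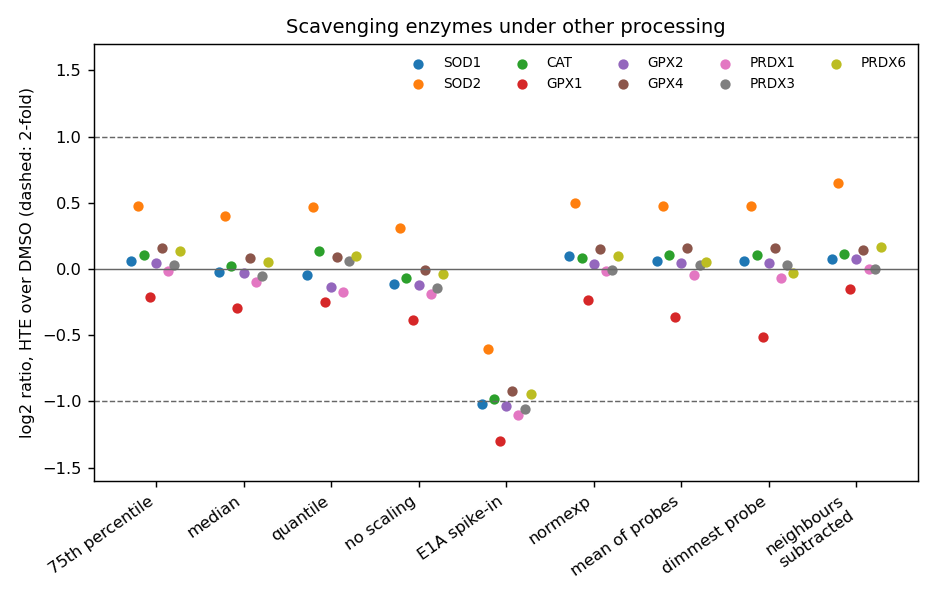
The y axis is the log2 ratio of HTE over DMSO of the 9 scavenging enzymes, and the columns are processing choices, the first being that used here. Choices that left all 9 values as in the first column are not drawn. SOD2 is the highest and GPX1 the lowest in each column, while E1A spike-in scaling moves all 9 genes below 0.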

How the data were processed

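RNA of HepG2 cells was hybridised in 1 colour to Agilent SurePrint G3 arrays, 1 array per group. The authors deposited Feature Extraction output (version 11.5.1.1 in the file header, 10.7 in the labels), and the values used are the deposited intensity of each spot, background-subtracted and detrended but not scaled between arrays. The outlier, saturation and well-above-background flags (other values) were also deposited by the authors.

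Control and outlier spots were left out, the 75th percentile of each array was subtracted from log2 intensity, and replicate spots were averaged. A probe entered if 0.5 or more of its spots were well above background in either group, and its ratio is a bound where only 1 group met this. Transcripts were named through the GRCh38.p14 RefSeq table, which matched 28174 of 50599 probes. The array was designed on another build, so no coordinates of probes are given. The brightest probe stood for a gene, and the cutoff was 2-fold. The members and gene lists were chosen with earlier results of these data known. Named are all members, genes past 2-fold, the extremes of each list, and TXN, TXNRD1, TXNRD2, SRXN1, GSR, PEX5, CCS, NFE2L2 and KEAP1. Some genes that this names are not reported here.

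The steps were checked on simulated data. Software was Python 3.11.15 (pandas 2.3.3, numpy 2.4.6, scipy 1.17.1, matplotlib 3.10.9) and limma 3.58.1 in R 4.3.3.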

Additional observations from a re-analysis of the deposited data

How the results depend on the processing

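The alternatives were 4 other scalings, normexp background correction (offset 50), other rules for dim, outlier or several probes, subtraction of the median ratio of 50 neighbouring spots, and fold cutoffs of 1.5 and 3, under which the enzymes past the cutoff remained 0. Scaling to the median gave 4 enzymes higher and 5 lower, with a median of -0.020. No scaling gave 1 and 8, with a median of -0.11. Quantile normalization gave 4 lower. Spike-in scaling gave 0 higher and 9 lower, 5 of them at least 2-fold lower, with a median of -1.02, reversed TXNRD1 (-0.031) and ME1 (-0.019), and took SESN2 (0.51), PEX5 (0.34) and MAFF (0.28) below 2-fold. Median, spike-in and no scaling move the ratios of genes measured on both arrays by a constant, which quantile normalization does not. Ratios that are bounds need not follow that constant, and the cause of the quantile changes was not tested. Among all genes, changed genes that were higher made up 63.4% at the 75th percentile and 42.2% without scaling. No paired analysis was possible because there was 1 array per group, and no array could be left out. With 1 array per group, precision is limited by that number throughout.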
